A study of Mus musculus with 8 samples.

Results

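The genes described are the Smads Smad1 to Smad7, which carry signals of bone morphogenetic proteins (BMPs) and transforming growth factor beta (TGF-beta) to the nucleus, and Id1, Id2 and Id3. The 10 members were chosen by gene symbol, were all found in the raw count table of 43346 genes, and all passed the filter on low counts, which left 15511 genes. By role, 5 are signal transducers (Smad1, Smad5, Smad2, Smad3, Smad4) and 5 are feedback or direct targets (Smad6, Smad7, Id1, Id2, Id3). RNA was sequenced from osteocyte-enriched fractions of bone of C57BL/6 mice of 12 weeks, with 3 femur, 3 frontal and 2 parietal libraries. The frontal and parietal bones are flat bones of the skull vault (calvaria), and the femur is a long bone. No transgene, treatment or sex is named for any group. A library is named here by its bone and the number after N in its column name (1, 2 or 4), which can differ from the number in its title. Separate animals or pooled ones are not told apart in the labels, so the p-values speak only of how far these libraries vary among themselves, and that variation may be technical.

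Ligands of both families bind paired type I and type II receptor kinases at the cell surface. Type I receptors phosphorylate receptor-regulated Smads, chiefly Smad1, Smad5 and Smad9 below BMP receptors and Smad2 and Smad3 below TGF-beta and activin receptors. These join the common partner Smad4 and act on genes in the nucleus. Smad6 and Smad7 are inhibitory Smads, which the pathways themselves induce and which block receptors and Smad complexes. Id proteins are classical BMP targets that bind basic helix-loop-helix factors through a helix-loop-helix domain but lack the basic region needed to bind DNA. In bone, BMP signalling is known for driving osteoblast formation, and TGF-beta signalling in osteocytes for regulating how they remodel the matrix around them.

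Total gene counts ran from 6259229 to 13461622 per library. The osteocyte label was checked on 10 markers, including Dmp1 and Sost, none of which was at 0 counts in any bone. Their summed level ran from 23900 to 49500 CPM (counts scaled to library size) in femur and from 737 to 1430 CPM in calvaria. The calvarial fractions thus carried far less osteocyte marker RNA in sum. Of the 10 markers, 8 were called lower in calvaria and 2 were not called. Summed erythroid markers ran from 12800 to 29700 CPM in femur and from 66200 to 109000 CPM in calvaria, with all 11 found called higher there, and granulocyte markers from 18700 to 45700 and from 59700 to 90200 CPM, with 9 of 12 higher. Endothelial markers ran from 651 to 797 CPM in femur and from 269 to 365 CPM in calvaria, with 12 of 13 lower. Osteoblast markers ran from 41100 to 57800 CPM in femur and from 3530 to 19200 CPM in calvaria, with 7 of 9 lower. B cell markers ran from 218 to 287 and from 685 to 835 CPM, with 7 of 8 higher. Immediate early genes, 3 heat shock genes among them, ran from 9010 to 9770 CPM in femur and from 2380 to 3570 CPM in calvaria, with all 17 lower. None of these sums overlapped between femur and calvaria, as was true of most members. Muscle markers were low but also did not overlap, from 3.27 to 5.57 CPM in femur and from 13.5 to 24.3 CPM in calvaria. Of the 3 muscle markers tested 1 was called higher. Megakaryocyte markers ran from 542 to 1250 CPM in femur and from 1110 to 2230 CPM in calvaria. The part of any of these marker sets in the results below was not tested. In bulk fractions, fewer cells of a type and less RNA per cell cannot be told apart.

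Calvaria was compared with femur to ask how this signalling branch differs between skull vault and long bone. Of the 10 members 9 fell in calvaria and none rose, at an adjusted p under 0.05 by edgeR's quasi-likelihood test. Over all genes tested, 61.0% were called in either direction, 31.4% lower and 29.6% higher. In the same 9 members every calvarial library lay below every femur library, which held for 27.5% of all genes tested. All 5 transducers fell, and so did 4 of the 5 targets, all but Id2. The median log2 fold change was -1.92 over the 10 members, -1.66 over the transducers and -1.94 over the targets, against 0.01 over all genes tested. All levels and fold changes are on the TMM scale (trimmed mean of M values), which sets the typical gene as equal between libraries. The directions turned when libraries were scaled to the osteocyte markers instead, as given at the end.

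**Figure D1:**
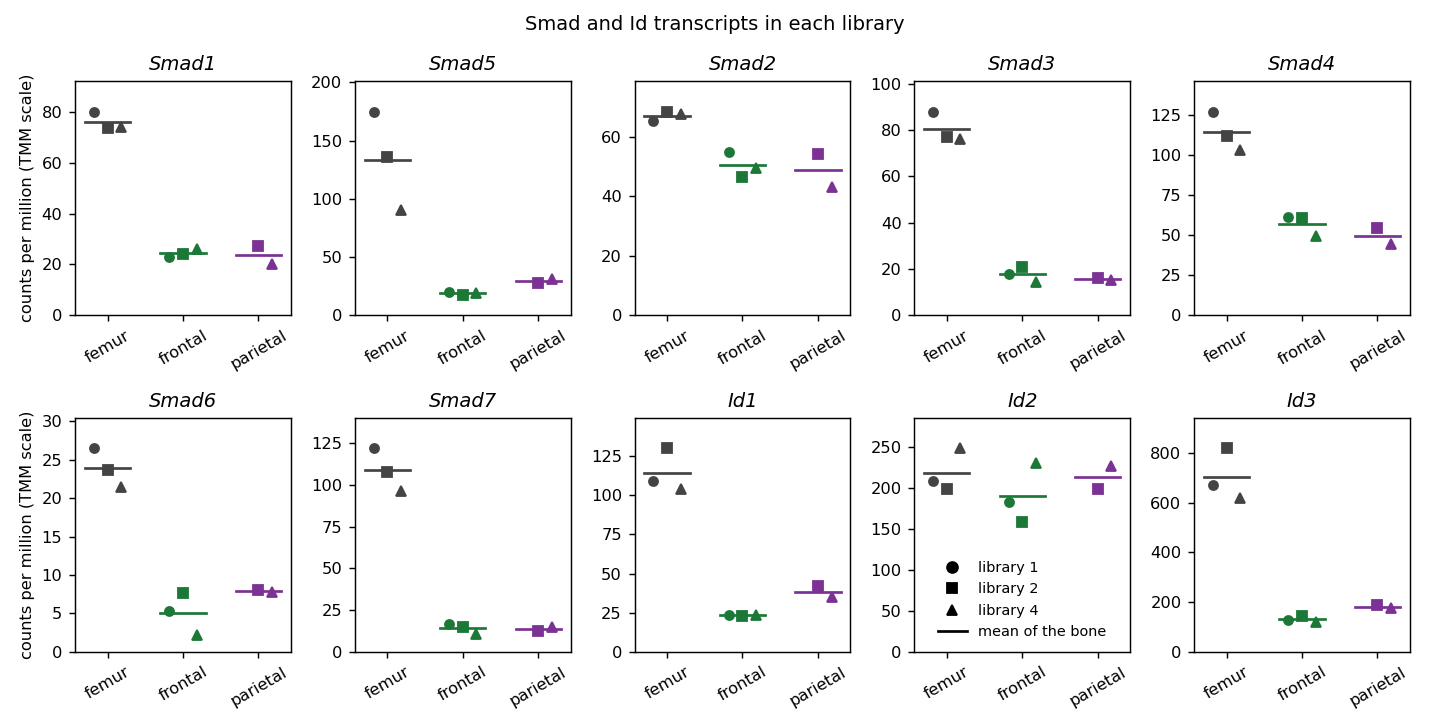
Level of each member in CPM (vertical axis, from 0, own range per gene) in the 3 bones. Each point is 1 library, its shape the number in the label, and each line is the mean of a bone. In every panel but that of Id2 all calvarial points lie below all femur points.

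The BMP-regulated Smads both fell. Smad1 (chromosome 8, 79338395 to 79399518, minus strand, GRCm38) stood at 80.3, 73.9 and 74.4 CPM in femur libraries 1, 2 and 4. It stood at 22.9, 24.2 and 26.1 CPM in frontal libraries 1, 2 and 4 and at 27.3 and 20.3 CPM in parietal libraries 2 and 4. The 5 skull libraries were close to each other and all far under the femur. The log2 fold change was -1.66 ± 0.13 (SE, adjusted p = 8.8e-07), or 3.16-fold lower.

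Smad5 (chromosome 13, 56703010 to 56742377, plus strand), whose protein acts beside Smad1, fell further. It stood at 175, 136 and 90.2 CPM in femur, at 20.1, 17.3 and 19.1 CPM in frontal bone and at 27.7 and 31.2 CPM in parietal bone. The femur libraries were spread widely, with a coefficient of variation of 31.8% against 4.64% for Smad1, and the lowest of them still lay far above every skull library. The log2 fold change was -2.50 ± 0.18 (adjusted p = 6.3e-07), or 5.67-fold lower. In femur the count ratio of Smad1 to Smad5 ran from 0.458 to 0.825 over the libraries. In frontal bone it ran from 1.14 to 1.4, above every femur library, and in parietal bone it was 0.649 and 0.983, overlapping the femur.

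Of the TGF-beta-regulated Smads, both fell, Smad3 by more than Smad2. Smad3 (chromosome 9, 63646767 to 63757994, minus strand) stood at 87.9, 76.8 and 76.2 CPM in femur, at 17.8, 20.8 and 14.5 CPM in frontal bone and at 16.2 and 15 CPM in parietal bone. Its log2 fold change was -2.26 ± 0.14 (adjusted p = 1.7e-07), or 4.81-fold lower. Smad2 (chromosome 18, 76241580 to 76310963, plus strand) stood at 65.5, 68.6 and 67.7 CPM in femur, at 55.0, 46.7 and 49.6 CPM in frontal bone and at 54.3 and 43.3 CPM in parietal bone. The skull libraries were again all lower, but the gap was small, with a log2 fold change of -0.44 ± 0.12 (adjusted p = 0.0071), or 1.36-fold. It did not pass with upper quartile factors (-0.27, adjusted p = 0.0662), with the trend on gene length and GC content removed (-0.29, adjusted p = 0.0737) or with spike-in scaling (-1.32, adjusted p = 0.168).

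The ratio of the 2 within a library does not depend on how libraries are scaled. There were 1.34, 1.12 and 1.13 Smad3 counts per Smad2 count in femur libraries 1, 2 and 4. The ratio was 0.324, 0.447 and 0.292 in the frontal libraries and 0.299 and 0.348 in the parietal ones. The femur thus held more counts of Smad3 than of Smad2 in every library, and the skull bones fewer in every library. This ratio compares counts, which also follow transcript length.

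Smad4, the common partner of both branches (chromosome 18, 73639009 to 73703780, minus strand), stood at 127, 112 and 103 CPM in femur, at 61.1, 60.6 and 49.3 CPM in frontal bone and at 54.4 and 44.4 CPM in parietal bone. It fell by 1.10 ± 0.13 on the log2 scale (adjusted p = 1.7e-05), or 2.15-fold. The skull libraries all lay below the femur. The 95% interval of the log2 fold change ran from -1.38 to -0.82, against -1.94 to -1.38 for Smad1, -2.90 to -2.10 for Smad5 and -2.57 to -1.96 for Smad3. Of all genes tested, 17.8% had a lower log2 fold change than Smad4, 5.24% than Smad3 and 4.12% than Smad5.

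Both inhibitory Smads, the first of the targets, fell. Smad7 (chromosome 18, 75367529 to 75395935, plus strand), which blocks receptors of both branches, had the lowest log2 fold change of the 10 members. It stood at 122, 108 and 96.5 CPM in femur, at 16.6, 15.1 and 10.5 CPM in frontal bone and at 12.8 and 15 CPM in parietal bone. The log2 fold change was -2.96 ± 0.16 (adjusted p = 7.0e-08), or 7.76-fold lower, and 2.66% of all genes tested had a lower one. Over 10 alternative settings, leaving aside left-out libraries and marker or spike-in scales, it ran from -2.97 to -2.44. Smad5 ran from -2.52 to -2.33 over the same settings, so the 2 ranges overlapped. There were 0.932 to 0.966 Smad7 counts per Smad4 count in the femur libraries and 0.214 to 0.338 in the 5 calvarial ones.

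Smad6 (chromosome 9, 63953076 to 64022059, minus strand), which acts chiefly on the BMP branch, was the least abundant member. It stood at 26.5, 23.7 and 21.5 CPM in femur, at 5.26, 7.65 and 2.25 CPM in frontal bone and at 8.03 and 7.86 CPM in parietal bone. Frontal library 4 was the lowest, with 16 counts (exact 95% Poisson interval 9.15 to 26.0, counting error only). The log2 fold change was -1.89 ± 0.26 (adjusted p = 7.3e-05), and -1.27 with the trend on gene length and GC content removed. The ratio of Smad6 to Smad7 counts was tight in femur, from 0.216 to 0.222, and ran from 0.213 to 0.629 in calvaria. Summed, the 2 inhibitory Smads had 0.278 to 0.286 counts per count of the 5 transducers in femur and 0.0806 to 0.148 in calvaria.

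Among the Id genes, Id3 and Id1 fell together and Id2 was not called. Id3 (chromosome 4, 136143497 to 136145755, plus strand) was the most abundant member in femur, at 670, 818 and 619 CPM. It stood at 129, 143 and 122 CPM in frontal bone and at 188 and 176 CPM in parietal bone, and every skull library was far below the femur. The log2 fold change was -2.18 ± 0.12 (adjusted p = 9.2e-08), or 4.54-fold lower. Id1 (chromosome 2, 152736251 to 152737410, plus strand) stood at 109, 130 and 104 CPM in femur, at 23.5, 23.0 and 23.3 CPM in frontal bone and at 42.0 and 34.8 CPM in parietal bone. Its log2 fold change was -1.94 ± 0.12 (adjusted p = 2.0e-07), or 3.83-fold lower. Over all 8 libraries there were 4.48 to 6.28 Id3 counts per Id1 count. The ratio ran from 5.95 to 6.28 in femur and from 5.23 to 6.2 in frontal bone. It was 4.48 and 5.05 in the parietal libraries, below every other library.

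Id2 (chromosome 12, 25093799 to 25097140, minus strand), best known for its part in the development of natural killer and other innate lymphoid cells, stood at 208, 198 and 248 CPM in femur, at 182, 158 and 230 CPM in frontal bone and at 198 and 227 CPM in parietal bone. The libraries of the bones overlapped throughout. The log2 fold change was -0.12 ± 0.14 (95% interval -0.42 to 0.19, adjusted p = 0.491). It passed, downward, with the trend on gene length and GC content removed (-0.49, adjusted p = 0.0052), and was above 0 but not called with upper quartile factors (0.06). There were 2.5 to 4.14 Id3 counts per Id2 count in femur and 0.531 to 0.948 in calvaria. Id3 thus had more counts than Id2 in every femur library and in no skull library. This ratio, too, follows transcript length. In CPM per kilobase of exon the 2 overlapped in calvaria, with Id3 from 68.1 to 105 and Id2 from 65 to 94.2. Beside this, the summed markers of T and natural killer cells ran from 63.3 to 100 CPM in femur and from 217 to 292 CPM in calvaria, with 8 of 10 called higher and none at 0 in any bone. Their part in the level of Id2 was not tested.

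**Figure D2:**
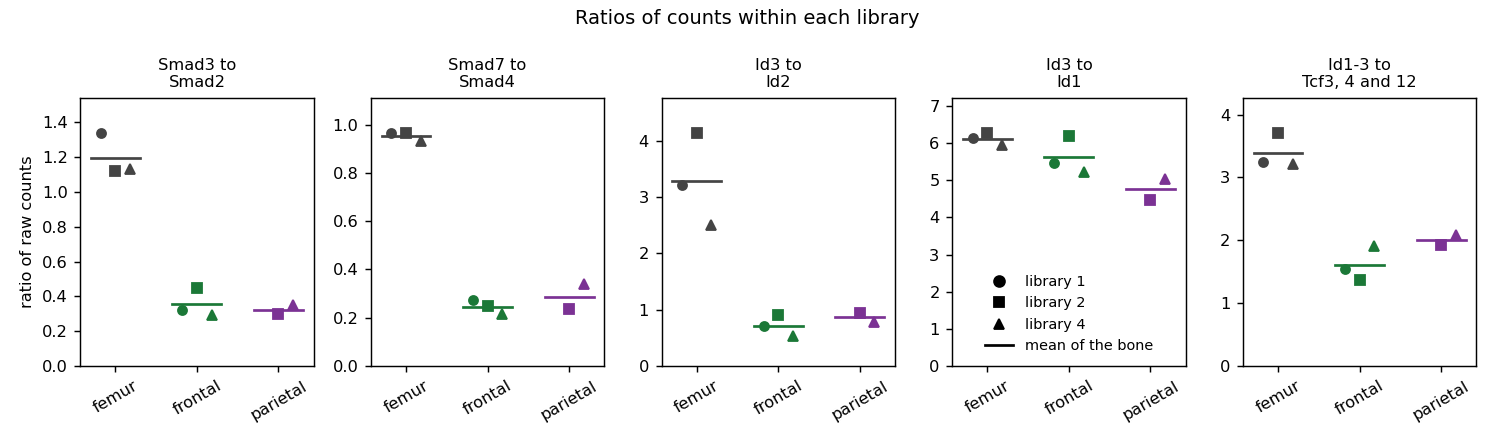
Ratios of raw counts within each library (vertical axis, from 0) for 5 pairs or sums of genes in the 3 bones, with each point 1 library and each line the mean of a bone. Femur lies above both skull bones in every library for Smad3 to Smad2, Smad7 to Smad4, Id3 to Id2 and Id1, Id2 and Id3 to Tcf3, Tcf4 and Tcf12, while Id3 to Id1 stays between 4.48 and 6.28.

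Promoter windows are shown for Id3 and Id2 because these 2 family members differed in the comparison, and for Smad6 as a target that fell. Windows were taken from RefSeq (GRCm38.p6) for 6 of the 10 members, each from 250 bases before to 50 after the annotated start. The other members were left out here, which does not mean that RefSeq lacks a start for them. Capitals mark GGCGCC, a GC-rich word known as a Smad site in BMP target genes, and CAGAC or its reverse complement GTCTG, a core of Smad binding elements. Both strands were searched, and neighbouring words can share an end base. The windows lie at chr4:136143572-136143871 (plus strand), chr12:25096043-25096342 (minus strand) and chr9:64022010-64022309 (minus strand).
Id3: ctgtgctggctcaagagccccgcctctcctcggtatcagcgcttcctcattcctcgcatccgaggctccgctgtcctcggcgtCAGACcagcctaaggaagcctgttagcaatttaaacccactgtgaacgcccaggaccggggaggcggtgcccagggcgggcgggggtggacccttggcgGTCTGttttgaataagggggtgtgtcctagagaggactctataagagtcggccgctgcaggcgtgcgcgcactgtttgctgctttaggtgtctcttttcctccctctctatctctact
Id2: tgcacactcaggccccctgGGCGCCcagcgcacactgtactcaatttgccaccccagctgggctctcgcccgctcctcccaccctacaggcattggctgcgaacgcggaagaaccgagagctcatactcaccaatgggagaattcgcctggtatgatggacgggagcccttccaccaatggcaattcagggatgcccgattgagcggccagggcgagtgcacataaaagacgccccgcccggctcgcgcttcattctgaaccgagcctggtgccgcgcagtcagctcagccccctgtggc
Smad6: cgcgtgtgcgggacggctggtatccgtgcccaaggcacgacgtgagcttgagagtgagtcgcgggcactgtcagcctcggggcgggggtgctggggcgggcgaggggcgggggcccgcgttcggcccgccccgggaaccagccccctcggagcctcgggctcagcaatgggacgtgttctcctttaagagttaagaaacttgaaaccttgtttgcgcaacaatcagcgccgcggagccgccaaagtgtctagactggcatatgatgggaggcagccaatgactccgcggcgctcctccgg

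The Id3 window held CAGAC or GTCTG in 2 places and no GGCGCC, and the Id2 window held GGCGCC in 1 place and neither CAGAC nor GTCTG. The Smad6 window held none of these words, but it held gtctagac, which was not among the words searched. Other or shorter forms of Smad sites were not searched in any window. Among 32851 such windows of all genes, 11.9% held GGCGCC and 49.6% held CAGAC or GTCTG, so a match is common. The 3 windows had a GC content of 60.0% (Id3), 63.3% (Id2) and 66.3% (Smad6), against a median of 52.7% over all windows. A match is a description of letters in a window and shows no binding.

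Levels of different genes were compared as CPM per kilobase of exon. In femur Id3 led at 392 ± 57.8 (SD, n = 3), followed by Id1 at 98.7 ± 12.1 and Id2 at 89.4 ± 10.8, whose libraries overlapped. Smad4 followed at 30.7 ± 3.19, then Smad7 at 24.1 ± 2.87, Smad5 at 18.0 ± 5.73, Smad3 at 14.5 ± 1.19 and Smad1 at 12.2 ± 0.565. Smad2 at 7.66 ± 0.183 and Smad6 at 7.45 ± 0.783 were lowest and overlapped, as did Smad5 with Smad7, with Smad3 and with Smad1. Among the Smads, Smad7 stood next to Smad4 in femur.

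In calvaria the order was different. Id3 at 84.6 ± 16.2 CPM per kilobase (SD, n = 5) and Id2 at 81.7 ± 12.4 overlapped at the top, with Id1 at 25.3 ± 7.46 below them. Smad4 followed at 14.5 ± 1.94 and Smad2 at 5.67 ± 0.568, which lay above Smad1 in every library (3.86 ± 0.439). Smad5 (3.11 ± 0.816), Smad7 (3.10 ± 0.527) and Smad3 (3.04 ± 0.462) overlapped each other and Smad1, and Smad6 was lowest at 1.94 ± 0.775, overlapping Smad5 and Smad7. Smad2 thus stood at the bottom of the transducers in femur and second to Smad4 in calvaria.

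As shares of the family's signal per kilobase, Smad7 made up 21 ± 0.0853% of the Smads in femur (SD, n = 3) and 8.75 ± 1.22% in calvaria (n = 5), while Smad4 made up 26.7 ± 0.523% and 41.0 ± 3.14%. Smad2 went from 6.73 ± 0.912% to 16.0 ± 1.49%. Smad1 held the same share in both, 10.7 ± 0.910% and 11 ± 1.5%, within the spread between libraries. Of the Id family with Id4, Id2 made up 15.3 ± 3.18% in femur and 42.3 ± 5.69% in calvaria, and Id3 66.1 ± 2.89% and 43.5 ± 4.27%. Shares of 1 sum are tied to each other, so that a fall in 1 member raises the others.

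**Figure D3:**
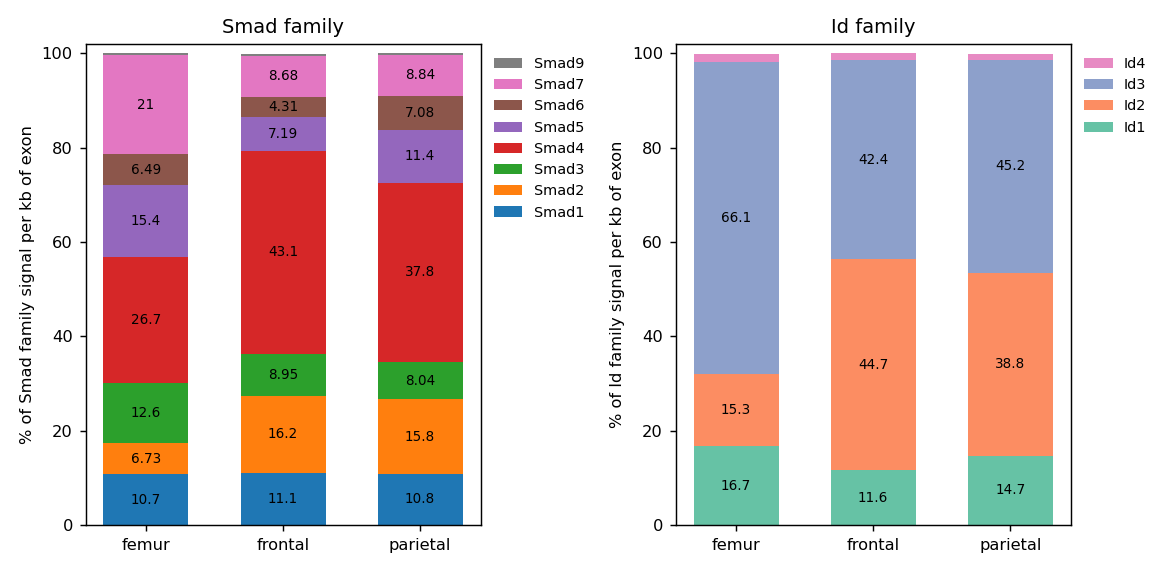
Mean share of each gene (stacked bars, vertical axis in percent) in the summed signal per kilobase of exon of the Smad family (left) and the Id family (right), per bone, with 3 femur, 3 frontal and 2 parietal libraries. Smad7 takes 21% of the femur bar and 8.68% and 8.84% of the frontal and parietal bars, and Id2 takes 15.3%, 44.7% and 38.8%.

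Frontal and parietal bone were next set against femur one by one. These 2 comparisons share their 3 femur libraries, so their values are given side by side and not as support for each other. In each, 9 of 10 members fell and Id2 was the exception. Of the 15511 genes tested, 4413 were called lower in frontal bone and 4434 in parietal bone. Called in either direction were 55.7% in each. Smad7 was at -2.94 ± 0.18 in frontal and -2.97 ± 0.22 in parietal bone, Smad1 at -1.64 ± 0.15 and -1.68 ± 0.17, and Smad3 at -2.17 ± 0.16 and -2.36 ± 0.19. Smad4 was at -1 ± 0.14 and -1.20 ± 0.17. Id3 was at -2.42 ± 0.14 and -1.95 ± 0.16, Id1 at -2.30 ± 0.14 and -1.58 ± 0.16, Smad5 at -2.83 ± 0.22 and -2.18 ± 0.25, and Smad6 at -2.20 ± 0.31 and -1.58 ± 0.34. With the trend on gene length and GC content removed, Smad6 was at -1.76 in frontal bone and at -0.77 in parietal bone (adjusted p = 0.0361). Id2 was at -0.20 ± 0.16 (adjusted p = 0.301) and -0.04 ± 0.17 (adjusted p = 0.874). Under that correction Id2 was called lower in frontal bone (-0.50, adjusted p = 0.0109) and in parietal bone (-0.49, adjusted p = 0.0234), and Smad2 in neither (-0.22, adjusted p = 0.227, and -0.36, adjusted p = 0.0828).

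Smad2 was at -0.42 ± 0.13 in frontal bone (adjusted p = 0.0196) and -0.46 ± 0.15 in parietal bone (adjusted p = 0.0205). These calls were the weakest of the 9. In frontal bone the call was lost without frontal library 2 (-0.36, adjusted p = 0.060) or femur library 2 (-0.41, adjusted p = 0.057). In parietal bone it was lost without femur library 2 (-0.46, adjusted p = 0.0539) or parietal library 4 (-0.35, adjusted p = 0.157), and with the replicate block (-0.45, adjusted p = 0.0591).

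**Figure D4:**
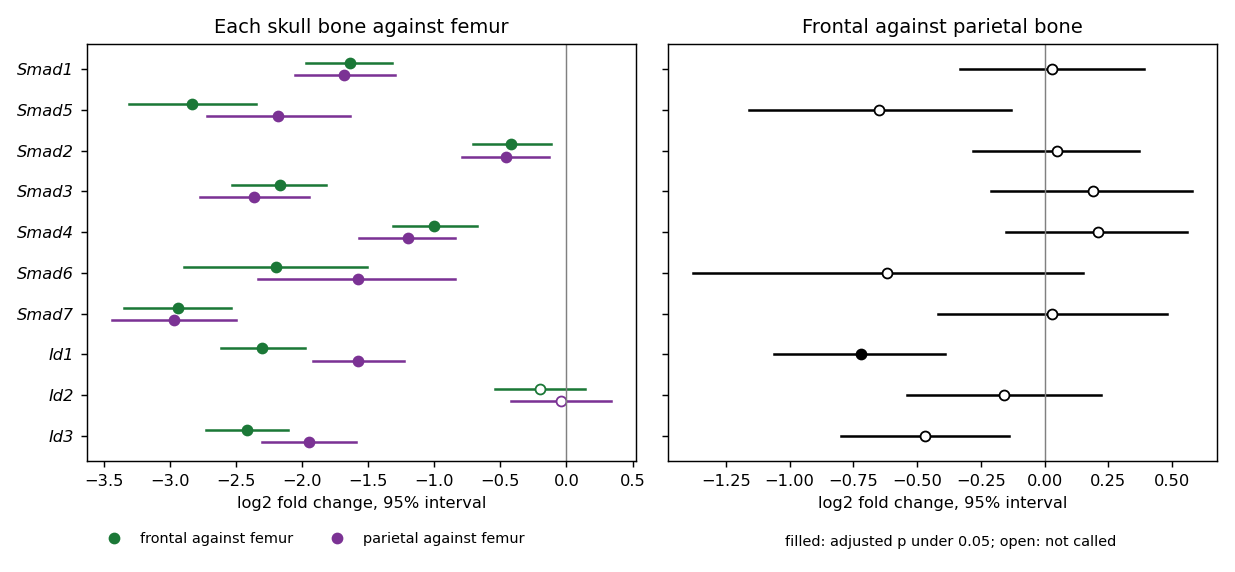
Log2 fold change of each member (points) with its 95% interval (lines), for frontal and parietal bone against femur (left) and for frontal against parietal bone (right), with filled points for an adjusted p under 0.05. On the left all points but those of Id2 are filled, and on the right only that of Id1, at -0.72.

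Frontal bone was then compared with parietal bone, which is also the test of whether the 2 skull bones differ from femur by unequal amounts. Of the 10 members 1 was called, Id1, where 7.21% of all genes tested were called, or 1118. That count fell to 0 by edgeR when frontal 1, femur 2, parietal 2 or parietal 4 was left out, with 3061, 4059, 3165 and 2520 genes at an unadjusted p under 0.05. It was 518 without frontal 4, 1714 without femur 1 and 1963 without frontal 2. With all libraries 4460 genes had an unadjusted p under 0.05, and DESeq2 called 2225 and limma-voom 1563. Id1 was lower in frontal bone, at 23.5, 23.0 and 23.3 CPM against 42.0 and 34.8 CPM, a log2 fold change of -0.72 ± 0.15 (95% interval -1.06 to -0.39, adjusted p = 0.0309). The call was lost when femur 2 was left out (-0.72, adjusted p = 0.0574), and likewise for frontal 1 (-0.73, adjusted p = 0.129) and frontal 4 (-0.68, adjusted p = 0.0576). Leaving out parietal 2 (-0.55, adjusted p = 0.189) or parietal 4 (-0.81, adjusted p = 0.227) also ended it. It was also lost with the replicate block (-0.70, adjusted p = 0.0994) and with the trend on length and GC content removed (-0.74, adjusted p = 0.050).

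Smad5, Smad6 and Id3 also had every frontal library below both parietal ones but were not called by edgeR with all libraries. With Id1 that makes 4 of 10 members, where 25.6% of all genes tested had such a gap in this direction. Smad5 was at -0.65 (95% interval -1.16 to -0.13, adjusted p = 0.10), Id3 at -0.47 (-0.80 to -0.14, adjusted p = 0.0717) and Smad6 at -0.62 (-1.38 to 0.15, adjusted p = 0.268). Smad6 moved to -0.25 without frontal library 4 and to -1.06 without frontal library 2. Smad5 passed without femur library 4 (-0.64, adjusted p = 0.035), without a filter on low counts (-0.61, adjusted p = 0.0358) and with only these bones in the fit (-0.62, adjusted p = 0.0445). Id3 passed by DESeq2 (-0.47, adjusted p = 0.0332) and with only these bones in the fit (-0.44, adjusted p = 0.0451). Beside these values, the summed osteocyte markers ran from 737 to 1220 CPM in frontal and from 1350 to 1430 CPM in parietal bone, without overlap. Gene by gene, 1 osteocyte marker was called lower in frontal bone, 1 higher and 8 not called (median log2 fold change -0.23). The summed osteoblast markers ran from 3530 to 19200 and from 11600 to 12300 CPM, with 3 called lower, 0 higher and 6 not called. Their part in the differences was not tested.

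For the remaining members the intervals of the difference between frontal and parietal bone were -0.33 to 0.39 (Smad1), -0.28 to 0.37 (Smad2), -0.21 to 0.58 (Smad3), -0.15 to 0.56 (Smad4), -0.42 to 0.48 (Smad7) and -0.54 to 0.22 (Id2). Within these limits a difference was not detectable with 3 and 2 libraries.

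Smad9 and Id4, the remaining relatives, fell in calvaria as well. Smad9, the third BMP-regulated Smad, was near the limit of detection, with 12, 17 and 25 counts in femur and 4 to 10 in the calvarial libraries, or 2.20 ± 0.666 and 0.680 ± 0.295 CPM, and fell by 1.79 ± 0.44 on the log2 scale in calvaria (adjusted p = 0.0037). Id4, known in bone for favouring osteoblasts over fat cells, stood at 46.8, 44.4 and 37.0 CPM in femur and at 7.72 to 11.7 CPM in calvaria. It fell by 2.10 ± 0.17 (adjusted p = 1.0e-06). Neither was called between frontal and parietal bone.

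Upstream of the Smads, 12 of 14 tested receptor, co-receptor and decoy receptor genes fell in calvaria, none rose, and the median log2 fold change was -1.33. Acvr1, a BMP type I receptor, stood at 77.5 ± 19.9 CPM in femur (SD, n = 3) and at 8.87 ± 1.34 CPM in calvaria (n = 5), with a log2 fold change of -3.15 ± 0.18. Bmpr1a, another, had a log2 fold change of -1.89 ± 0.22, and Tgfbr2, the TGF-beta type II receptor, of -1.23 ± 0.13. Bambi, a decoy receptor that BMP itself induces, was at -1.44 ± 0.12. Not called were Acvr1b (0.56, adjusted p = 0.306) and Acvr1c (-1.28, adjusted p = 0.163), named after their values were seen.

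Of 31 tested genes whose products modify, degrade, import or repress Smads 18 fell and 1 rose, with a median of -0.80. Tob1, an antiproliferative protein that represses BMP signalling in osteoblasts, stood at 271 ± 38.6 CPM in femur and 47.9 ± 12 CPM in calvaria (log2 fold change -2.58 ± 0.15). Ski, a co-repressor of Smads, was at -2.52 ± 0.19, the phosphatase gene Ctdsp2 at -1.79 ± 0.11 and the ubiquitin ligase gene Wwp2 at -1.68 ± 0.13. The ligases Smurf1 (-1.73 ± 0.16) and Smurf2 (-1.37 ± 0.13), named after their values were seen, fell as well. The 1 that rose was Usp15 (0.59 ± 0.11, adjusted p = 0.00081), a deubiquitinase, also named after its value was seen.

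Other target genes were lower too. Of 13 tested BMP targets outside the members 11 fell and none rose (median -1.44), with the homeobox gene Dlx3 at -4.16 ± 0.29 next to Tob1, Id4 and Bambi, which other lists hold as well. Of 15 tested TGF-beta targets 14 fell and none rose (median -1.72). Pmepa1, a feedback inhibitor that binds Smad2 and Smad3, stood at 368 ± 60.7 CPM in femur and 22.2 ± 3.21 CPM in calvaria, a log2 fold change of -4.05 ± 0.16 (adjusted p = 1.5e-08). Cdkn1a, the cell cycle inhibitor p21, was at -2.40 ± 0.12, Bhlhe40 at -2.04 ± 0.15 and the integrin Itga5 at -1.92 ± 0.13. The counts of all these lists are to be read against the 31.4% of all genes called lower, and the genes also respond to signals other than Smads.

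Genes of the partners of Id proteins were mixed. Of 10 tested genes of helix-loop-helix and other Id-binding factors 5 fell, 2 rose and 3 were not called (median -0.47). Over all genes tested, 31.4% were called lower and 29.6% higher. The E protein genes Tcf3 (-0.10 ± 0.21, adjusted p = 0.711) and Tcf12 (-0.19 ± 0.15, adjusted p = 0.284) were not called, while Tcf4 fell by 0.93 ± 0.10. Hes1 was at -2.22 ± 0.16, Hey1 at -1.36 ± 0.19 and Ets1 at -0.86 ± 0.11. The 2 that rose, Tal1 (1.25 ± 0.20) and Lyl1 (1.06 ± 0.29), are factors of blood-forming cells, and erythroid marker sums were higher as well (above); the part of those cells was not tested. Tcf3, Tcf12, Tal1 and Lyl1 were named after their values were seen. Summed, Id1, Id2 and Id3 had 3.21 to 3.71 counts per count of Tcf3, Tcf4 and Tcf12 in femur, 1.37 to 1.91 in frontal and 1.93 to 2.09 in parietal bone, with no overlap between femur and calvaria.

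For each target the 3 genes with the most similar profile were sought among all genes tested, by the root mean square distance in log2 CPM over the 8 libraries after each gene was centred on its mean. The nearest to Smad7 were Ier5 (0.129), Rhbdf1 (0.149) and Dlgap4 (0.154), where Smad7 itself departed from its mean by 1.44. The nearest to Smad6 were P3h3 (0.147), Lzts2 (0.171) and Syde2 (0.173). For Id1 they were Mkx (0.150), Nab2 (0.162) and Id3 (0.163), and for Id3 Rgcc (0.135), Id1 (0.163) and Fgf7 (0.166). Id1 and Id3 were thus each among the other's 3 nearest genes. Id2, which departed from its mean by only 0.192, was nearest to Entpd1 (0.103), Zmym1 (0.106) and Pcbp2 (0.107). These distances describe 8 libraries in 3 bones and chiefly reflect the gap between femur and skull.

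The fold changes were also read against marker genes in place of the typical gene. Scaled to the 10 osteocyte markers, all 10 members were higher in calvaria and 9 were called, with Smad7 (0.29, adjusted p = 0.181) the exception. On this scale the median gene stood at 3.24, so that every member but Id2 (3.10) and Smad2 (2.80) lay more than 1 log2 unit under it. Scaled to the 13 endothelial markers, which puts the median gene at 1.48, Smad7 (-1.51), Smad5 (-1.04), Smad3 (-0.82) and Id3 (-0.73) were called lower, Id2 (1.39) and Smad2 (1.03) were called higher, and Smad1 (-0.19), Smad4 (0.35), Smad6 (-0.49) and Id1 (-0.48) were not called.

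**Figure D5:**
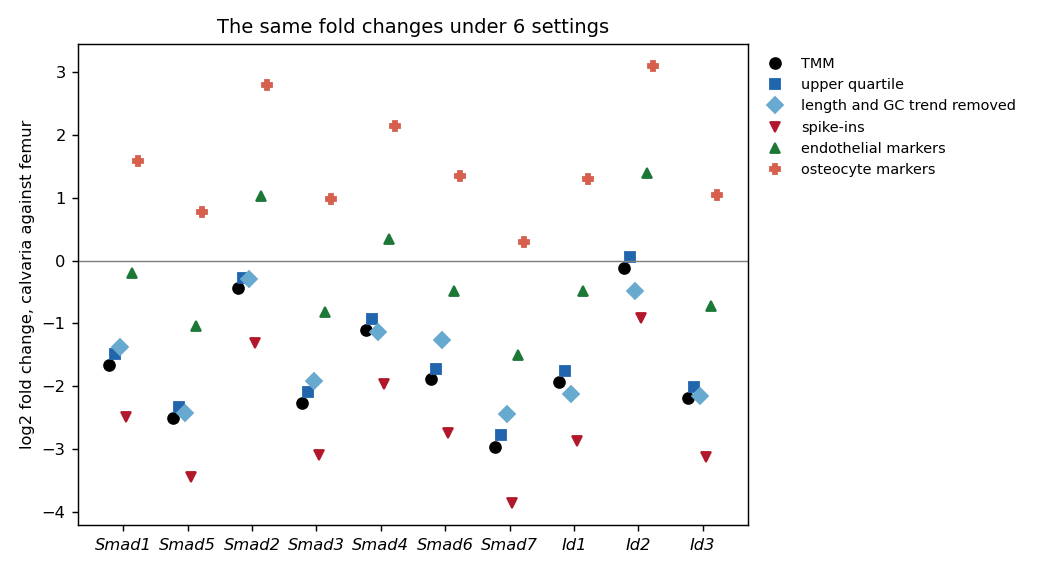
Log2 fold change of each member in calvaria against femur (vertical axis) under 6 settings: TMM, upper quartile factors, length and GC trend removed, and libraries scaled to spike-ins, to endothelial or to osteocyte markers. The order of the members is similar under each, with Smad7 lowest and Id2 and Smad2 highest, while the level moves from all below 0 (spike-ins) to all above 0 (osteocyte markers).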

How the data were processed

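RNA sequencing of osteocyte-enriched bone fractions was deposited as 3 tables. The authors deposited raw counts per gene (43346 genes and 92 spike-ins), the same counts for fewer genes, and a normalized signal (scaled CPM with TMM in the table's name). The submitters' processing notes list STAR 2.5.2a, limma, edgeR and DESeq2, and as builds mm10 and GRCm38.p3, with no role for any. Libraries were made with Nextera XT, per the labels' protocols. Which tool counted reads, by which strand rule and gene models, is not given in the sources used here. Overlapping and antisense genes therefore cannot be told apart, but of the members only Smad5 overlaps another annotated gene's exon, a small RNA.

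Symbols (found for 42462 genes), positions and exon lengths came from GENCODE M21 (GRCm38), which may differ from the release behind the counts. Library sizes hold genes only. Counts were tested with edgeR 4.0.16 (R 4.3.3; filterByExpr, TMM, robust quasi-likelihood, 3 bones as groups, all 8 libraries, 5 residual degrees of freedom), with Benjamini-Hochberg adjustment over the 15511 genes tested and calls at an adjusted p under 0.05. SE and 95% intervals were derived from the F statistic. The biological coefficient of variation was 18.6%. The fit was also run on simulated, independent counts in which fewer genes differed than were called here, which does not test the scaling of these libraries. Replicate pairs of a bone differed by more than sampling noise (smallest chi-square per degree of freedom 7.67). Smad and Id members and all gene lists were chosen with earlier results of these data known. Named genes are all members, Smad9 and Id4, the 4 smallest p of each list for calvaria against femur, and the 3 nearest profiles per target (log2 CPM with a prior count of 2). Alternatives were DESeq2 1.42.0, limma 3.58.1 (voom, and the authors' scaled values as log2(value + 1)), other scalings and filters, a length and GC trend, a replicate block, only the bones compared, and each library left out.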

Additional observations from a re-analysis of the deposited data

Results flagged for a closer look

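Id1 differed between the 2 skull bones: its log2 fold change for frontal against parietal bone was -0.72 (adjusted p = 0.0309 by edgeR), so its fall against femur was larger in frontal than in parietal bone. It was lower in all 3 frontal libraries than in both parietal ones. The adjusted p over the alternatives other than left-out libraries ran from 0.0024 to 0.0994, and over the left-out libraries from 0.024 to 0.227.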

How the results depend on the processing

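Over the alternatives run, Smad3, Smad5, Smad7 and Id3 were called lower in all 3 comparisons with femur under every setting but the osteocyte scale, and Smad1, Smad4, Smad6 and Id1 under every setting but the osteocyte and endothelial scales (both run for calvaria only). The call of Smad2 in frontal or parietal bone was also lost with upper quartile factors, by library size, without a filter, over the authors' filtered genes, on the authors' scaled values and after removing the trend on length and GC. With each library left out, 9 members were called in calvaria, 8 to 9 in frontal and 8 to 9 in parietal bone against femur, and 0 to 2 between frontal and parietal bone. Between frontal and parietal bone, 2 members were called by DESeq2 (Id1, Id3), 2 without a filter (Id1, Smad5), 3 with only these bones in the fit (Id1, Id3, Smad5), 0 with the length and GC trend removed and 0 with the replicate block. Of all genes, 1118 were called there, against 2225 by DESeq2, 1904 without a filter, 165 with the trend removed and 0 with the block (3504 at an unadjusted p under 0.05 by edgeR). The cause was not tested. Deviations from the bone means correlated at r of -0.10 to 0.15 over 7 pairs of libraries with the same number. Pairs with different numbers ran from -0.15 to 0.17. With so few libraries per bone the deviations within a bone are tied to each other. The check therefore cannot decide whether the number pairs libraries.

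Scaled to osteocyte markers, 9 members were called higher in calvaria: Smad1 (1.59), Smad5 (0.77), Smad2 (2.80), Smad3 (0.98), Smad4 (2.15), Smad6 (1.34), Id1 (1.30), Id2 (3.10) and Id3 (1.05), with Smad7 (0.29) above 0. On the endothelial scale Smad2 (1.03), Smad4 (0.35) and Id2 (1.39) turned. These scales follow from the fall of the markers themselves. Spike-ins took 0.0286 to 0.176% of counts, with wide spread inside a bone, and put the median gene at -0.83. Of all genes called in calvaria, 4596 were higher and 4868 lower on the TMM scale, 14818 and 130 on the osteocyte scale, 11549 and 916 on the endothelial scale and 35 and 3087 on the spike-in scale. Between frontal and parietal bone these were 607 and 511, against 773 and 249 by library size alone and 717 and 355 on the authors' scaled values. Upper quartile factors moved the median gene by up to 0.18 and library size alone by up to 0.14.

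Uncalled values near 0 changed sign. Id2 in calvaria was at 0.06 with upper quartile factors. In parietal bone against femur it was at 0.02 by library size, 0.15 with upper quartile factors and 0.01 on the authors' scaled values, and from -0.18 to 0.06 with a library left out. For frontal against parietal bone, the length and GC trend gave -0.16 (Smad1), -0.06 (Smad3) and -0.29 (Smad7), the block -0.10 (Smad7), and left-out libraries -0.12 to 0.30 (Smad1), -0.06 to 0.25 (Smad2) and -0.10 to 0.23 (Smad7).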
